A study of Homo sapiens with 6 samples.

Results

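Complement is a cascade of plasma and cell-surface proteins that marks and perforates target cells, and 9 genes of this system were examined in BT-549 cells with and without silencing of IRF1. They were chosen by name, as components or regulators of complement: the classical pathway proteases C1R and C1S, the central component C3, the alternative pathway protease CFB, the soluble regulators SERPING1 and CFI, and the membrane regulators CD46, CD55 and CD59. All 9 were found among the 37887 listed gene symbols. The BT-549 line is derived from a triple-negative breast cancer, and IRF1 is a DNA-binding protein that switches on genes of the interferon (IFN) response. RNA-seq was performed on 3 control samples given 0.1% DMSO and 3 shIRF1 samples given 500 ng/ml doxycycline. By the series text, doxycycline switches on the IRF1 short hairpin RNA (shRNA). By title the controls carry a control shRNA, while by the series text they are the same inducible IRF1 shRNA line left without doxycycline. The controls received no doxycycline in either case, so the drug and the loss of IRF1 cannot be told apart. If the titles hold, the groups also differ in the line and the hairpin it carries, which cannot be told apart either.

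In the classical pathway, C1q bound to a target activates C1r, which cleaves C1s, and C1s then cleaves C4 and C2 to form an enzyme that cleaves C3. In the alternative pathway, factor B (CFB) bound to C3b forms an enzyme that cleaves more C3. Cells limit the cascade with C1 inhibitor (SERPING1), which inactivates C1r and C1s, with factor I (CFI), which degrades C3b and C4b, and with surface proteins that act on the C3-cleaving enzymes (CD46 and CD55) or on the terminal pore (CD59). Hepatocytes supply most plasma complement, but many other cells, tumor cells among them, transcribe its genes. Several of these genes are known to respond to IFNs.

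Promoter windows, from 250 bases before to 50 after an annotated start, were read from RefSeq (GRCh38.p14) for 6 of the 9 genes, 11 windows in all; none was given for C1S, C3 and SERPING1. They were searched on both strands for the core of the IFN-stimulated response element (ISRE, the site bound by IRF proteins), written as GAAA, NN and GAAA in a row, for the STAT site called GAS (TTCNNNGAA), and for the NF-kB site kappaB. Of all 35116 windows of this length, 3.57% held the ISRE core, 7.66% the GAS motif and 11.3% the kappaB motif. CFB is shown because its window was the 1 of 11 with all 3 motifs, C1R because its level fell most among the genes with a window, and CD46 because it had the smallest adjusted p-value of the 9 genes. Capitals mark the motif matches.
CFB promoter, chr6:31945845-31946144, plus strand: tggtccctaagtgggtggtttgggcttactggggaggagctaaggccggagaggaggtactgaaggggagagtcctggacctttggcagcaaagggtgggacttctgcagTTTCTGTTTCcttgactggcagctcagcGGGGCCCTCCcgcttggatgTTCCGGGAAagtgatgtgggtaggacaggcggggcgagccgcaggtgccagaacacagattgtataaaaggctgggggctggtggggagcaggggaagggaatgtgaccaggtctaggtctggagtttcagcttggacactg
C1R promoter, chr12:7091844-7092143, minus strand: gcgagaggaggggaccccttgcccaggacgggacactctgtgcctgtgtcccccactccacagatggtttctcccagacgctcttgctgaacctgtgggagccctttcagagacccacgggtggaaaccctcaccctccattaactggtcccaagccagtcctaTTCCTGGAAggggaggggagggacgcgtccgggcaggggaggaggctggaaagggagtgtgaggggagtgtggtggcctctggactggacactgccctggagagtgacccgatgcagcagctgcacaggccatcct
CD46 promoter, chr1:207751788-207752087, plus strand: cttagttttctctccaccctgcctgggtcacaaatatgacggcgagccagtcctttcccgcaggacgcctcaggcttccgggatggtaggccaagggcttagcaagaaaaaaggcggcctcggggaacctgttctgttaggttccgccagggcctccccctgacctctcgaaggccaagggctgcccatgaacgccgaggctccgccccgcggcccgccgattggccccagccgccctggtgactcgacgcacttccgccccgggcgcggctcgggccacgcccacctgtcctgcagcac
In the CFB window the 3 runs of capitals are the ISRE core on the reverse strand, the kappaB motif and the GAS motif, which began at positions -140, -112 and -92 from the start site. In C1R a GAS motif began at position -86 of 1 of its 2 windows. The windows of CD46, CD55 and CFI held none of these letters, and 2 of the 4 CD59 windows shared 1 GAS motif. A match is a description of the letters and was not tested for binding.

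IRF1 itself was measured first, as a check of the labels. Levels are given as CPM, the count of a gene per 1e6 counts of the TMM-scaled library, in the order of replicates 1 to 3. IRF1 stood at 45.3, 48.1 and 51.5 CPM in control and 13.8, 14.9 and 14.6 CPM in shIRF1 samples, a log2 fold change of -1.74 ± 0.06 (SE; adjusted p of 4.53e-13 by edgeR). Here and below, adjusted p-values are from the quasi-likelihood test of edgeR after Benjamini-Hochberg correction over 18851 genes, and a gene is called when its value is under 0.05.

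The transcriptome as a whole moved widely. Of the genes tested, 50.5% were called, 24.1% higher and 26.4% lower in shIRF1 samples, 4.43% were called and over 2-fold lower, and 56.8% had CPM values that did not overlap between the groups. Total counts ranged from 55143808 in shIRF1 replicate 2 to 160436234 in shIRF1 replicate 3, so 3 counts, taken here as the smallest detected number, correspond to 0.0182 to 0.0540 CPM. These floors cover counting error only. The labels number 3 samples per group without saying what sets them apart. The p-values measure the spread between these samples, which may be technical. The receptor markers were low as the name triple-negative implies for ESR1 (at most 0.144 CPM) and PGR (at most 0.324 CPM), whereas ERBB2 lay between 35.0 and 54.8 CPM. The summed mesenchymal markers were at 1935 to 2047 CPM in control and 1514 to 1616 CPM in shIRF1 samples. The summed epithelial markers were at 8.43 to 8.93 and 3.94 to 4.46 CPM. The members of these sums did not all move: VIM, FN1, ZEB1, KRT8 and KRT18 were called lower in shIRF1 samples. CDH2 (on average 240 CPM in control and 245 CPM in shIRF1 samples), CDH1 (0.676 and 0.673) and EPCAM (0.0714 and 0.110) were not called. KRT19 was too low to test.

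Against that background, 8 of the 9 complement genes passed the filter on low counts and 7 of these were called, beside 50.5% of all genes tested. SERPING1, C1R, CD46, CD55 and C1S fell (5 genes, beside 26.4% of all genes) and C3 and CD59 rose (2 genes, beside 24.1%) in shIRF1 samples, CFB was not called, and CFI was too low to test. For the same 7 genes the CPM values of control and shIRF1 samples were fully apart, beside 56.8% of all genes. SERPING1 and C1R were the 2 that fell more than 2-fold, beside 4.43% of all genes. The median log2 fold change over the 8 tested genes was -0.35, beside -0.0024 over all genes tested. These shares of all genes cover every level. When only genes reaching 1 CPM in 3 samples were kept, 64.9% of all genes tested were called. Of the 9 complement genes, 7 were then tested, with 2 called higher and 5 lower. The set was chosen with earlier results of these data known, so these counts are a description. RNA from bulk cultures does not separate fewer expressing cells from less RNA per cell.

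**Figure D1:**
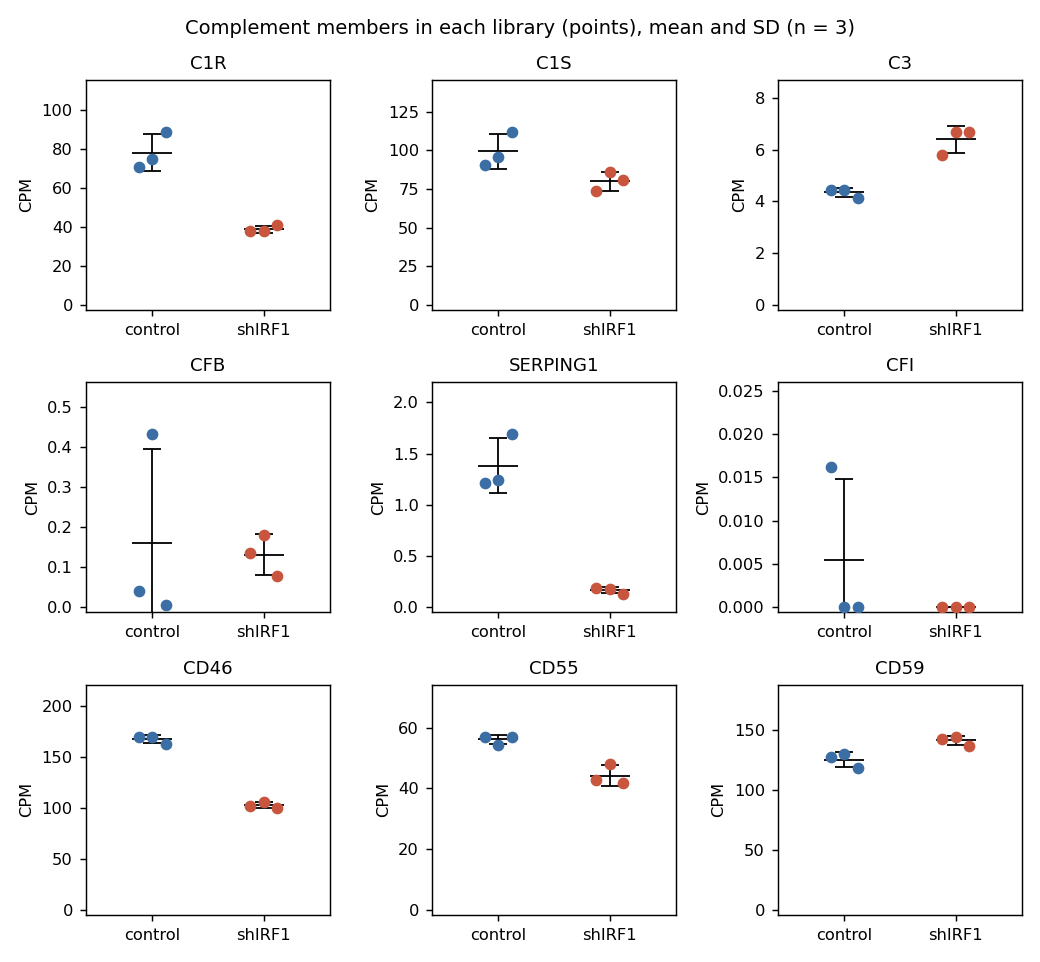
Level of each of the 9 complement genes in CPM (vertical axes, linear from 0, a separate scale for each gene) in the 3 control and 3 shIRF1 libraries (points, offset in replicate order), with the mean (wide bar) and SD (n = 3; the lower bars of CFB and CFI in control run below 0 and are cut at the axis). The groups are apart for C1R, C1S, C3, SERPING1, CD46, CD55 and CD59, they overlap for CFB, and CFI has counts in 1 library only.

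SERPING1 encodes C1 inhibitor, the serpin that inactivates C1r and C1s and also restrains the contact system. It showed the largest fold change of the 9 genes. Its level was 1.22, 1.24 and 1.69 CPM in control samples, from 150, 152 and 252 counts. In shIRF1 samples it was 0.190, 0.180 and 0.134 CPM, from 24, 10 and 22 counts. Every shIRF1 sample lay far below every control, and the lowest was the most deeply sequenced library. The mean went from 1.38 ± 0.267 to 0.168 ± 0.0303 CPM (SD, n = 3), which is 12.2% of control. This was a log2 fold change of -3.07 ± 0.25 (SE; 95% confidence interval -3.59 to -2.56; adjusted p of 1.30e-08 by edgeR), and 0.308% of the genes tested had a lower one. The gene lies at chr11:57597387-57614853 on the plus strand (GENCODE 29, GRCh38). Of 17 genes tested within 200 kb of it, 5 were lower, 4 higher and 8 not called. Over all genes tested, 26.4% were lower and 24.1% higher. Among these neighbours, UBE2L6, which encodes the conjugating enzyme for the IFN-induced modifier ISG15, fell from 40.5 to 4.29 CPM (log2 fold change of -3.24 ± 0.10), and SMTNL1 fell by 4.48 ± 0.68 on the log2 scale at 0.214 CPM in control. These were the 2 neighbours with a lower log2 fold change than SERPING1, and they are named here after their values were seen.

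C1R and C1S encode the paired serine proteases of the C1 complex, and the genes lie 9.166 kb apart on chromosome 12, transcribed toward each other. Both fell in shIRF1 samples, C1R more than C1S. C1R was at 70.7, 74.6 and 88.8 CPM in the control samples and at 37.7, 37.8 and 40.8 CPM in the shIRF1 samples. The shIRF1 values were close to each other and all below the controls, among which replicate 3 was the highest. The mean went from 78.1 ± 9.52 to 38.8 ± 1.75 CPM, a log2 fold change of -1.01 ± 0.07 (SE; 95% confidence interval -1.15 to -0.87; adjusted p of 1.23e-09 by edgeR). The interval includes a 2-fold decrease.

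C1S was at 90.4, 95.9 and 112 CPM in the control samples and at 73.4, 85.7 and 81.0 CPM in the shIRF1 samples. The gap between the groups was smaller than the SD within each, with the highest shIRF1 sample just under the lowest control. Mean C1S thus moved from 99.5 ± 11.3 to 80.0 ± 6.19 CPM, a log2 fold change of -0.32 ± 0.07 (SE; 95% confidence interval -0.46 to -0.17; adjusted p of 8.54e-04 by edgeR). Per kb of exon, C1R and C1S together went from 28.7 ± 3.36 to 19.0 ± 1.05 CPM per kb, or 66.2% of control.

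The ratio of C1R to C1S counts within a library does not depend on how libraries are scaled. It was 0.782, 0.778 and 0.792 in the control samples and 0.514, 0.441 and 0.504 in the shIRF1 samples. The control libraries thus held nearly the same ratio, although their C1R levels differed, and all shIRF1 libraries were lower. The difference in mean log2 ratio was -0.69, a ratio of ratios of 0.619. A two-sided exact permutation test gave p = 0.1, which is the smallest value that 3 against 3 samples allow. The ratio of C1S to SERPING1 counts was 74.3, 77.4 and 66.3 in control and 386, 476 and 606 in shIRF1 samples, so every shIRF1 library lay above every control. The difference in mean log2 ratio was 2.69, or 6.45-fold, also with an exact permutation p of 0.1.

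**Figure D2:**
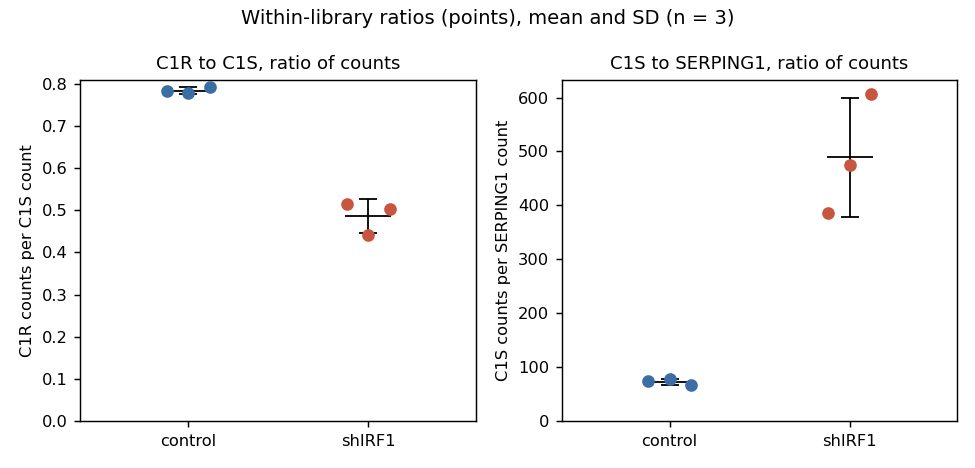
Ratios of counts within each library (points), with mean and SD (n = 3), for C1R to C1S (left) and C1S to SERPING1 (right), on linear axes that start at 0. The C1R to C1S ratio lies at 0.778 to 0.792 in control and 0.441 to 0.514 in shIRF1 samples, and the C1S to SERPING1 ratio at 66.3 to 77.4 and 386 to 606.

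C1R lies at chr12:7080199-7092607 on the minus strand and C1S at chr12:6988259-7071032 on the plus strand. Exons shared with a gene on the same strand make up 11.4% of the exonic length of C1R (with C1RL) and 3.54% of that of C1S (with EMG1), so reads there could be split or left out by the counting. Of the 17 genes tested within 200 kb of C1R, C1S and C1RL among them, 10 were lower and 3 higher. Over all genes tested, 26.4% were lower and 24.1% higher. None of the 17 had a lower log2 fold change than C1R. C1RL, the neighbouring protease-like paralog of C1R, went from 13.3, 14.6 and 16.3 CPM to 11.7, 10.3 and 10.9 CPM. Its log2 fold change was -0.42 ± 0.08, of smaller size than that of C1R, and its groups did not overlap.

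C3, on which all the activation pathways converge, moved the other way. It was at 4.44, 4.45 and 4.15 CPM in the control samples and at 5.80, 6.70 and 6.70 CPM in the shIRF1 samples. Every shIRF1 sample was above every control. Mean C3 moved from 4.35 ± 0.171 to 6.40 ± 0.520 CPM, a log2 fold change of 0.56 ± 0.09 (SE; 95% confidence interval 0.37 to 0.74; adjusted p of 4.48e-05 by edgeR), or 1.47-fold. The gene lies at chr19:6677704-6730562 on the minus strand, and none of its exonic length is shared with another gene on the same strand.

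CFB, the protease that joins C3b in the alternative pathway, was near the limit of detection and varied widely between control samples. The control samples had 5, 53 and 1 CFB counts, which correspond to 0.0406, 0.432 and 0.00671 CPM. The shIRF1 samples had 17, 10 and 13 counts, or 0.135, 0.180 and 0.0790 CPM. Control replicate 2 was thus the highest and control replicate 3 the lowest of the 6 samples, so the groups overlapped. The log2 fold change was -0.35 ± 0.82 (SE; 95% confidence interval -2.08 to 1.39; adjusted p of 0.762 by edgeR), an interval that holds a more than 2-fold change in either direction. Without control replicate 2 the estimate was 2.42 with an adjusted p of 0.0242, so that 1 library set its direction and its call. CFB lies at chr6:31945650-31952084 on the plus strand, and 45.0% of its exonic length is shared with the readthrough gene AL645922.1, which is not among the listed symbols. Of 20 genes tested within 200 kb of CFB, 7 were higher, 1 lower and 12 not called. Over all genes tested, 24.1% were higher and 26.4% lower. STK19, a gene of the same region, was also unlike its replicates in control replicate 2, but low where CFB was high. It was at 3.38, 0.808 and 2.27 CPM in control and 4.86, 7.39 and 6.73 CPM in shIRF1 samples. NELFE, adjacent to CFB, was at 75.7, 79.7 and 97.5 CPM in control and 112, 104 and 92.6 CPM in shIRF1 samples. These genes are named after their values were seen. The ratio of C3 to CFB counts ranged from 10.3 to 619 in control and from 37.2 to 84.8 in shIRF1 samples, with an exact permutation p of 0.7.

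CFI, the protease that cuts C3b and C4b with the help of cofactors such as CD46, had 2 counts in control replicate 1 and 0 counts in the other 5 libraries. Neither group exceeded the floor of 3 counts, so no fold change is given. On the same strand, 32.0% of its exonic length is shared with AC126283.2, which is not among the listed symbols, so reads there could have been left out by the counting.

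The membrane regulators, far above C3, CFB and CFI in level per kb, did not move together. CD46, the cofactor with which factor I degrades C3b and C4b on the cell surface, fell. Its level was 170, 170 and 163 CPM in control and 102, 106 and 99.9 CPM in shIRF1 samples. The replicates were close to each other and the groups far apart. Mean CD46 moved from 167 ± 4.16 to 103 ± 3.02 CPM, a log2 fold change of -0.71 ± 0.04 (SE; 95% confidence interval -0.80 to -0.62), and the adjusted p of 3.15e-10 by edgeR was the smallest of the 9 genes. CD46 lies at chr1:207752057-207795513 on the plus strand. Its pseudogene CD46P1, which may take or lend reads, averaged 0.388 and 0.193 CPM in control and shIRF1 samples.

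CD55, or decay-accelerating factor, dissociates the C3-cleaving enzymes. It was at 56.9, 54.5 and 57.1 CPM in control and 42.9, 48.1 and 41.6 CPM in shIRF1 samples, with no overlap. Mean CD55 moved from 56.1 ± 1.47 to 44.2 ± 3.40 CPM, a log2 fold change of -0.35 ± 0.05 (SE; 95% confidence interval -0.46 to -0.24; adjusted p of 2.63e-05 by edgeR). The gene lies at chr1:207321376-207386804 on the plus strand, 365 kb before CD46 in the cluster of regulators of complement activation.

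CD59 blocks assembly of the membrane attack complex, the terminal pore. It was at 127, 130 and 119 CPM in control and 143, 145 and 137 CPM in shIRF1 samples, and so was the 1 membrane regulator of the 3 that rose. The mean went from 125 ± 6.03 to 141 ± 4.04 CPM, a log2 fold change of 0.17 ± 0.05 (SE; 95% confidence interval 0.08 to 0.27; adjusted p of 4.07e-03 by edgeR), or 1.13-fold. The difference was small but kept its sign under each scaling tried. The gene lies at chr11:33703010-33736491 on the minus strand, and 6.07% of its exonic length is shared on that strand with AL049629.2.

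To compare levels between genes, CPM was divided by the exonic length of each gene. Summed over CD46, CD55 and CD59, the level went from 40.8 ± 0.903 to 32.9 ± 1.27 CPM per kb, or 80.6% of control. The makeup of that sum shifted from CD46, whose share went from 47.1% ± 0.138 to 35.8% ± 0.331, to CD59, whose share went from 29.6% ± 0.845 to 41.5% ± 0.658. The share of CD55 was 23.3% ± 0.980 and 22.7% ± 0.901, a difference within the spread of the replicates. CD46 was the most abundant of the 9 genes per kb in control (19.2 CPM per kb), above C1S (15.4), C1R (13.3) and CD59 (12.1), which overlapped with their neighbours in that order. CD55 (9.50) and, at much lower levels, C3 (0.522) and SERPING1 (0.384) followed without overlap.

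In shIRF1 samples CD59 (13.6 CPM per kb), C1S (12.4) and CD46 (11.8) came first, each overlapping with the next in order. CD55 (7.48) and C1R (6.59) followed, so C1R changed from the third to the fifth place. C3 (0.769 CPM per kb), SERPING1 (0.0466) and CFB (0.0263) came next without overlap, as in the plot of levels per kb, and CFI had no counts. The ranges of SERPING1 and CFB nearly met, at a lowest value of 0.0371 and a highest of 0.0360 CPM per kb. Both genes had 10 counts in shIRF1 replicate 2, so their order there rests on the exonic length. In control samples CFB stood at 0.0320 CPM per kb with a range that reached that of CFI.

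**Figure D3:**
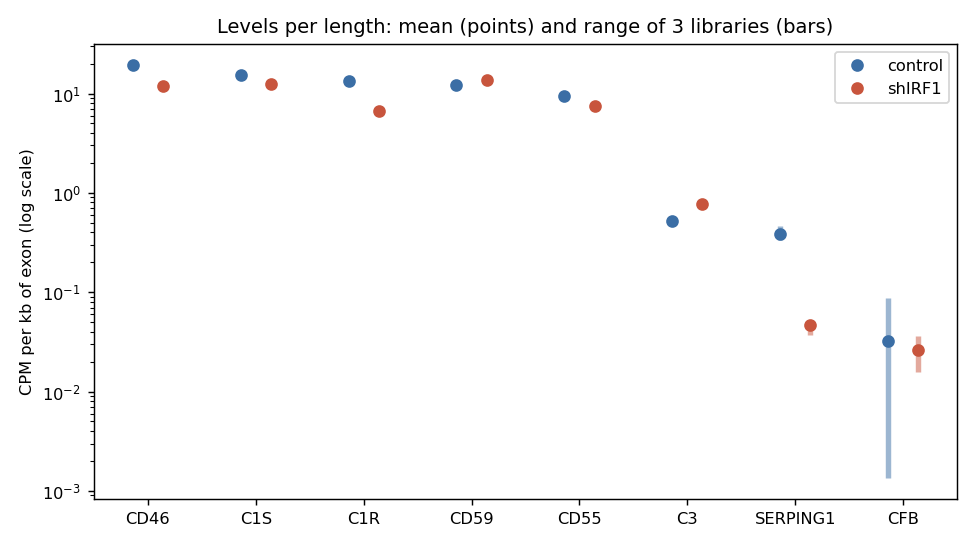
Level per length of 8 complement genes in CPM per kb of exon (vertical axis, log scale), as the mean (points) and range (bars) of 3 libraries per group; CFI, with 0 counts in 5 libraries, is left out. The membrane regulators, C1S and C1R lie between 6.59 and 19.2 CPM per kb, C3 and SERPING1 lie lower, and the range of CFB in control spans the most on this scale.

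A wider list of 54 other complement genes was read in the same fit, and 27 of them passed the filter. Of these 27, 10 were higher and 5 lower in shIRF1 samples and 12 were not called, so that 55.6% were called beside 50.5% of all genes tested. Their median log2 fold change was 0.48. Among the 10 that averaged 1 CPM or more, 5 rose and 4 fell, and CSMD3 was not called (0.27 ± 0.12). The 50.5% covers genes at all levels, and calls were more frequent once low genes were set aside. When only genes reaching 1 CPM in 3 samples were kept, 64.9% of all genes tested were called. That rule is not the same as an average of 1 CPM, so it is a rough comparison for these 10 genes. The C1q chains C1QA, C1QB and C1QC, which start the classical pathway, had no counts in any library.

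Among the soluble regulators, CLU, or clusterin, a chaperone that also binds the terminal complex, fell from 342, 361 and 391 CPM to 225, 233 and 245 CPM, a log2 fold change of -0.64 ± 0.05 with an adjusted p of 1.30e-08 by edgeR. Per kb, CLU stood above every one of the 9 genes in both groups, at 55.1 ± 3.73 and 35.4 ± 1.49 CPM per kb. PROS1, or protein S, which circulates in part bound to C4b-binding protein, rose by 0.35 ± 0.07 on the log2 scale.

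C5AR1, the receptor for the anaphylatoxin C5a, was at 1.65, 1.71 and 1.72 CPM in control and 3.35, 4.12 and 3.73 CPM in shIRF1 samples, a log2 fold change of 1.13 ± 0.11 with an adjusted p of 2.45e-07 by edgeR. MASP2, the protease of the lectin pathway that cleaves C4 and C2, was at 1.63, 1.77 and 1.25 CPM in control and 2.63, 3.39 and 3.23 CPM in shIRF1 samples, a log2 fold change of 0.99 ± 0.14. Both groups were apart for each of these genes. C5, the source of C5a, rose by 0.48 ± 0.12 on the log2 scale, but the call was lost at equal depth, where the estimate was 0.24 with an adjusted p of 0.271 by edgeR. SUSD4, a membrane regulator, was at 4.92, 5.30 and 5.04 CPM in control and 3.06, 2.45 and 2.89 CPM in shIRF1 samples, a log2 fold change of -0.84 ± 0.10. C1QBP, a largely mitochondrial protein also known to bind C1q, fell by 0.14 ± 0.04 on the log2 scale. Its call was lost with upper quartile scaling and with library size only, and kept with the size factors of DESeq2.

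**Figure D4:**
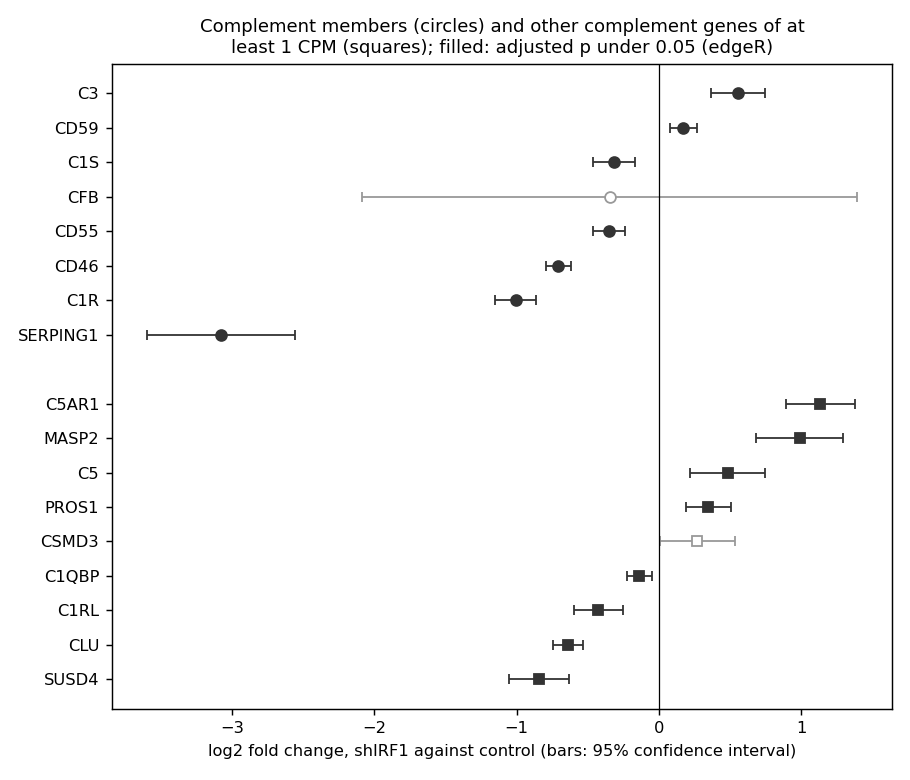
Log2 fold change of shIRF1 against control (horizontal axis) with its 95% confidence interval (bars) for the 8 tested complement genes of the main set (circles) and 9 others averaging 1 CPM or more (squares); filled symbols have an adjusted p under 0.05. SERPING1 stands farthest to the left at -3.07, CFB has the widest interval, and C5AR1 at 1.13 stands farthest to the right.

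Blood and liver cells also make complement, so their markers were read in the same libraries. The summed blood and myeloid markers were at 2.89 to 3.26 CPM in control and 3.64 to 4.43 CPM in shIRF1 samples, and CD14, at 1.09 and 2.22 CPM on average, was the highest in shIRF1 samples. LYZ and CD68, markers of macrophages, were at most 0.0892 CPM in any library. PTPRC, the pan-leukocyte marker, averaged 0.526 and 0.481 CPM in control and shIRF1 samples, CSF1R 1.35 and 1.14 CPM and CD68 0.0694 and 0.0547 CPM, so the higher sum came from CD14. The summed hepatocyte markers were at 0.130 to 0.163 and 0.216 to 0.651 CPM, with APOB at 0 in every library. ALB averaged 0.0692 CPM in control, from 8, 6 and 14 counts, and 0.340 CPM in shIRF1 samples. It was called higher, with a log2 fold change of 2.34 ± 0.45. APOA1 averaged 0.0717 and 0.102 CPM, and so was above ALB in control only. C3 and C5AR1 were higher in the same samples, and the part of CD14 and ALB in those results was not tested.

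CD46 was taken as the lead gene for a search of like profiles because its adjusted p was the smallest of the 9. Among 13065 other genes that averaged 1 CPM or more, the nearest over the 6 libraries, by Euclidean distance between centred log2 CPM, were CDC6 (0.0254), KCNMA1 (0.0403) and SNX7 (0.0547). CDC6, a DNA replication licensing factor, went from 67.1 to 40.9 CPM and KCNMA1, a potassium channel subunit, from 98.4 to 59.9 CPM. SNX7, a sorting nexin, went from 90.0 to 55.5 CPM. Their log2 fold changes of -0.72, -0.72 and -0.70 lay within 1 SE of that of CD46. This closeness follows from the choice by distance over the same libraries and is no separate result.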

How the data were processed

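RNA-seq libraries were prepared by the authors with TruSeq Stranded mRNA kits from BT-549 cells, 3 control and 3 shIRF1 samples. The deposited file holds whole-number counts for each gene symbol, which the authors had not normalized. The submitters' processing notes name CASAVA 1.8.2, STAR 2.7.9a, featureCounts, DESeq2 1.24.0 and GRCh38.p7; the annotation release, the use of strand and the handling of read pairs are not given in the sources used here, so counts of overlapping genes and near-identical copies are uncertain. Among genes with 2 to 11 counts, 72.1% to 75.2% of values per library were even, so mates of a pair appear to have been counted separately. All 6 columns matched a sample title. Replicates differed beyond sampling noise (chi-square per degree of freedom of halved counts, 6.16 to 15.2).

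Counts were fitted with the quasi-likelihood model of edgeR (version 4.0.16, in R 4.3.3) after TMM scaling and filterByExpr (minimum count 10), and p-values were adjusted by Benjamini-Hochberg over all genes tested. It was tested on simulated data. The SE is the size of the log2 fold change divided by the square root of F. Exonic lengths and positions came from GENCODE 29 and promoter windows from RefSeq. Named genes were IRF1, the 9 chosen genes, other complement genes that were called and averaged 1 CPM or more, and the 3 profiles nearest to the lead gene; others are said to be chosen after their values were seen. A gene that met this rule is not reported here. The 9 genes and the lists were chosen with earlier results of these data known. Alternatives were DESeq2 1.42.0, 3 other scalings, other filters, halved counts, thinning, leaving out each library, a replicate block and a test against a 2-fold change (glmTreat); summing C4A and C4B was chosen after seeing the data.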

Additional observations from a re-analysis of the deposited data

How the results depend on the processing

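Across the alternatives, SERPING1 kept its direction and its call in all 16 settings, with a log2 fold change from -3.22 to -2.77. In 1 of these, the filter asking for 1 CPM in 3 samples, it passed only through the control samples, where it is high. That setting is no separate support for the fall. C1R (-1.08 to -0.90), CD46 (-0.72 to -0.66), CD55 (-0.41 to -0.30), C1S (-0.38 to -0.22), C3 (0.51 to 0.62) and CD59 (0.14 to 0.22) kept both in 15 of 16. The exception was the test against a 2-fold change with glmTreat, which asks for more than a difference from 0 and called none of these 6: C1R at -1.01, CD46 at -0.71, CD55 at -0.35, C1S at -0.32, C3 at 0.56 and CD59 at 0.17. Under it the counts were 0 higher and 1 lower among the 9 genes, and 1 higher and 0 lower among the other complement genes, with 504 genes called in all beside 9519 in the test against no change.

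CFB reversed to 2.42 without control replicate 2 and to 0.59 with the replicate block (adjusted p of 0.501 by edgeR), and leaving out 1 library at a time gave -0.94 to 2.42. CFB had no value with halved counts or under the filter asking for 1 CPM in 3 samples, which it did not pass. Leaving out 1 library at a time gave 2 to 3 higher and 5 lower of the 9 genes, the third being CFB without control replicate 2. For the other complement genes it gave 10 to 12 higher and 3 to 5 lower, with 3 lower without control replicate 2. In these settings 42.9% to 48.1% of all genes tested were called. The filter of 1 CPM left 6 of the other complement genes higher, with 64.9% of all genes tested called. The difference in log2 C3 to CFB ratio ranged from -2.03 to 0.63 when 1 library was left out. C1QBP lost its call with upper quartile scaling (adjusted p of 0.0600 by edgeR), with library size only (0.0654) and without control replicate 2 (0.0689).

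Whether the replicate numbers 1 to 3 pair the samples was not settled. Over 13066 genes, deviations from the group mean correlated at -0.0953, 0.0510 and 0.123 for numbers 1 to 3. Samples of unlike number were not compared, so these values cannot exclude a pairing. The replicate block called 9462 genes in all and changed no call of the 9 genes. The median log2 fold change of all genes was 0.0488 when libraries were scaled by size alone and 0.0414 with upper quartile scaling. CFI lay under the floor of 3 counts in every library. CFB had 53 counts in control replicate 2 and 1 count in the deeper control replicate 3, a spread that does not follow depth.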

Other observations

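Among the 44 other complement genes with a mean under 1 CPM, 17 passed the filter on low counts. Of these, 5 rose and 1 fell in shIRF1 samples (35.3% called, beside 50.5% of all genes tested, at all levels). They lie outside the rule for named genes and are given here because of their values. C6, a subunit of the terminal pore, had 4, 2 and 8 counts in control and 40, 12 and 54 counts in shIRF1 samples, a log2 fold change of 3.03 ± 0.48 (adjusted p of 4.51e-05 by edgeR). It was the largest change in that list, from a mean of 0.0341 CPM in control to 0.287 CPM in shIRF1 samples. C6 passed the filter on low counts only through the shIRF1 samples, the group where it is high. That it was tested and counted among the 5 thus depends on its rise. CFP, or properdin, which stabilizes the alternative pathway enzyme, went from 0.305 ± 0.101 to 0.747 ± 0.105 CPM, a log2 fold change of 1.31 ± 0.27. ITGB2, the beta subunit of complement receptors 3 and 4, went from 0.335 ± 0.0971 to 0.723 ± 0.211 CPM. CD93, a receptor first described for C1q, went from 0.241 ± 0.0210 to 0.118 ± 0.0140 CPM.

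C4A and C4B, near-identical copies whose reads the counting may split, rose by 1.12 ± 0.23 and 1.28 ± 0.37 on the log2 scale. With their counts added, a choice made after seeing the data, the level was 0.633, 0.669 and 0.912 CPM in control and 1.47, 1.98 and 1.59 CPM in shIRF1 samples. The log2 fold change of the sum was 1.16 ± 0.18 (adjusted p of 4.57e-05 by edgeR). C4 is the substrate of C1s, whose transcript fell in the same samples.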
